A study of Homo sapiens with 6 samples.

Results

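The cell cycle regulators described here were 49 genes of 20163 protein-coding genes. They comprised cyclins, cyclin-dependent kinases (CDKs) and their inhibitors, E2F factors, pocket proteins, checkpoint and mitotic genes, and the negative regulators of the cell cycle that the study names. They were listed by name, and the list was drawn up with earlier results of these data known. A gene was counted as carrying a peak where a called 6mA peak overlapped its body or the 5000 bp on either side, which is its window. 6mA-IP-seq, in which genomic DNA is immunoprecipitated with an antibody to N6-methyladenine (6mA) and sequenced, was carried out in MDA-MB-453 cells, an established breast cancer cell line. The cells had received 10 nM scramble siRNA (Control) or siRNA targeting human N6AMT1 (si-N6AMT1), with Lipofectamine RNAiMAX, for 48 h. Each group held 2 immunoprecipitated libraries that the labels call biological replicates, and the peak calls of these 4 libraries were compared. All cells came from 1 line, and how far N6AMT1 fell is not measured by these peaks. The question was where these genes carried 6mA peaks and whether the peaks differed after N6AMT1 knockdown.

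Progression through the cell cycle is driven by CDKs, which act when bound to cyclins. Active cyclin D and cyclin E kinases phosphorylate the pocket proteins, which otherwise hold E2F factors in check, and CDK inhibitors of the CIP/KIP and INK4 families oppose the kinases. N6AMT1 has been described as a methyltransferase that places 6mA on DNA, and its knockdown was meant to remove such a writer.

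The regions shown by sequence are 3 of the 8 at these genes that were called in all 4 libraries, the most repeatable peaks of the group. Each line gives 200 bp of the GRCh37 plus strand centred on the median summit, 5′ to 3′. Capitals mark CAGG, its reverse complement CCTG, and runs of 8 or more A or T. The region beyond the end of CDK2, the kinase partner of cyclins E and A, was a broken CA repeat (chr12:56366818-56367017). The region before the start of CDKN2C, an INK4 inhibitor of CDK4 and CDK6, was rich in C and A (chr1:51425038-51425237). The region 272.95 kb from the start of MAD1L1, a spindle checkpoint gene, lay in an intron and held a run of 12 A (chr7:1999829-2000028).
CDK2: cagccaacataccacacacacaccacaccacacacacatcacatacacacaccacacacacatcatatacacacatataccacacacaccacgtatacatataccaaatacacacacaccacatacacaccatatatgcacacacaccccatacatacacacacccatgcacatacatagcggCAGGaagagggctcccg
CDKN2C: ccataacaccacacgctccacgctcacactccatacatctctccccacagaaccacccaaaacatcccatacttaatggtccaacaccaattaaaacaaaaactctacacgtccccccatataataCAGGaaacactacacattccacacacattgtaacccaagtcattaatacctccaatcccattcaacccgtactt
MAD1L1 at 272.95 kb: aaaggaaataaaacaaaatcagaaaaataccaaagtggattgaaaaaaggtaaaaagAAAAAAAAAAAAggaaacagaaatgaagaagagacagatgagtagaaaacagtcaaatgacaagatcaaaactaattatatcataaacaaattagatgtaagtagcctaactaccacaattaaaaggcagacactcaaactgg
The other 5 regions called in all 4 libraries lay in introns, 2 in RBL1, which encodes the pocket protein p107, 2 in MAD1L1 and 1 in CCND3, which encodes cyclin D3.

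Repeats were common among all regions of this kind. A run of 8 or more A or T was found in 3 of the 8 windows, in 26.8% of the 5794 regions at protein-coding genes called in all 4 libraries, and in 11.8% of 11581 windows of the same length placed 5000 bp away. A purine or pyrimidine run of 20 or more bases was found in 3 of the 8, in 35.1% of such regions and in 4.9% of the windows nearby. A CA or TG repeat of 10 or more bases was found in 2 of the 8, in 15.1% and in 1.84%. The motif CAGGCTGG, searched on both strands, was found in 1 of the 8, in 4.54% of the regions and in 10.3% of the windows nearby. CAGG, which lies inside that motif, was found in 5 of the 8, in 48.2% and in 82.4%. The median GC content was 41.5% in the 8 windows, 40.0% in the regions and 42.0% nearby.

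The 4 libraries differed in depth. Control replicates 1 and 2 had lists of 30451 and 33410 peaks, and the si-N6AMT1 replicates lists of 38847 and 40844. Relative depth, read from the genome-wide background that the peak caller used, came to 1.0 and 1.32 for the controls against 1.38 and 1.5 after knockdown. The median summit rested on 17 to 19 fragments, and the part of counting error in the gain or loss of weak peaks was not tested. Depth and the number of peaks thus moved with the groups, and values are also given with each list cut to its 30451 strongest peaks (equal numbers of peaks).

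Peaks were found at 17, 17, 16 and 22 of the 49 genes (Control replicates 1 and 2, then si-N6AMT1 replicates 1 and 2, the order kept throughout). These counts are 34.7%, 34.7%, 32.7% and 44.9% of the 49, against 34.5%, 35.4%, 40.3% and 41% of all protein-coding genes. The groups overlapped, with 17 ± 0 genes in Control and 19 ± 4.24 in si-N6AMT1 (SD, n = 2), and the difference of 2 genes turned to -1 without si-N6AMT1 replicate 2 and rose to 5 without si-N6AMT1 replicate 1. With equal numbers of peaks the counts were 17, 14, 13 and 17. The number of peaks then differed in some library at 16 of the 49 genes, and 6 (TIPRL, MDM2, CCNB1, CCNB2, CDK4 and AURKA) lost their only peak. A peak in at least 1 library was found at 29 of the 49 genes, against 54.2% of protein-coding genes, and in all 4 libraries at 8 of 49 (16.3%), against 23.8%. A further 11 genes had a peak in 1 library alone, which is 22.4% against 13.1% of protein-coding genes.

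The number of distinct peaks at the 49 genes was 30, 24, 35 and 34, or 27 ± 4.24 in Control and 34.5 ± 0.707 in si-N6AMT1 (SD, n = 2). Both si-N6AMT1 libraries lay above both controls, and no assignment of 2 against 2 libraries can give an exact permutation p below 0.333.  With equal numbers of peaks the counts were 30, 20, 24 and 26, and the group difference was 0. Per length, the windows of the 49 genes (2.45 Mb) held 12.2, 9.78, 14.3 and 13.9 peaks per Mb, against 10.2, 11.1, 13.1 and 13.6 for the windows of all protein-coding genes. The ratio of these densities was 1.19, 0.879, 1.09 and 1.02. It lay on both sides of 1 within Control, and the group means, 1.036 ± 0.222 and 1.055 ± 0.0466 (SD, n = 2), differed by less than the spread between replicates.

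**Figure D1:**
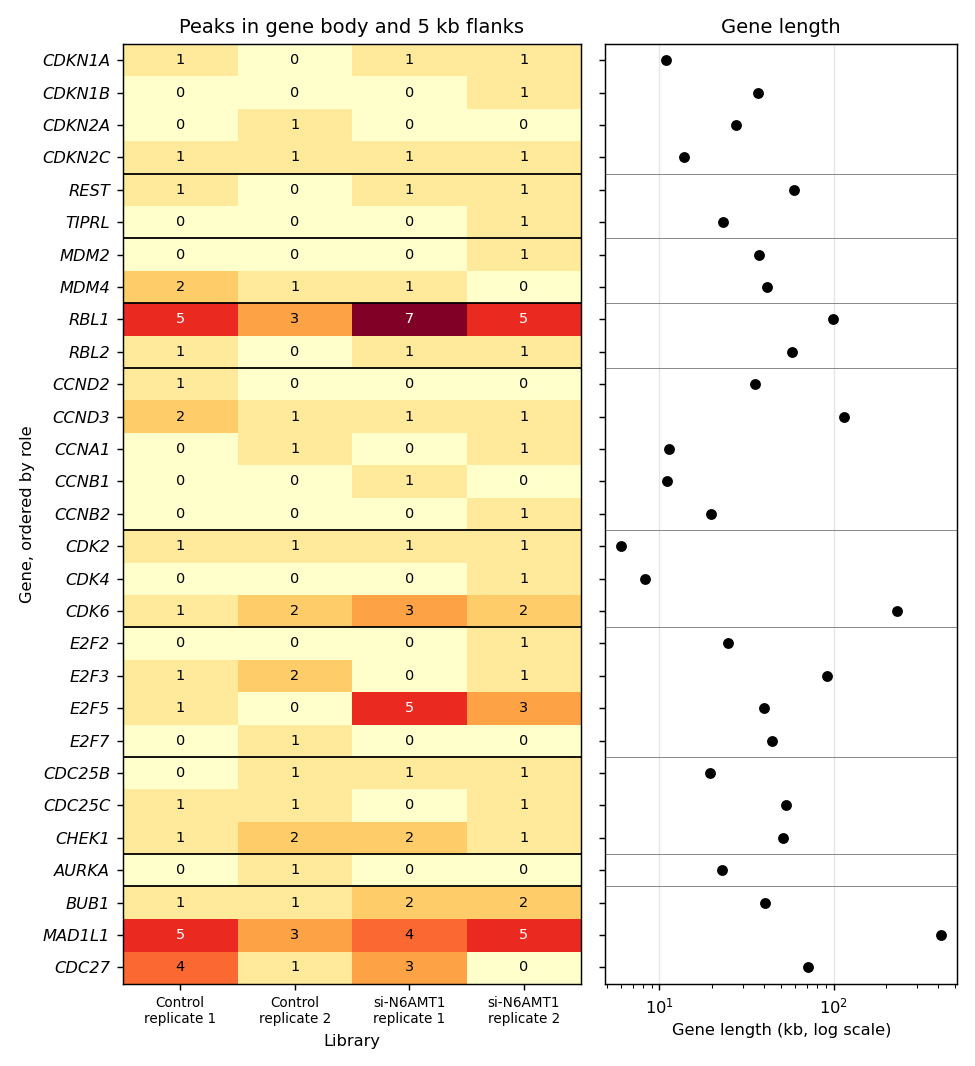
Number of 6mA peaks in the gene body and the 5000 bp on either side, for the 29 cell cycle regulators with a peak in any of the 4 libraries (left, one column per library), and gene length in kb on a log axis (right). Genes are ordered by role, with lines between roles; RBL1 and MAD1L1 carried 3 to 7 peaks in every library, and most of the other genes 0 to 2.

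The genes with peaks were mostly the longer ones. Across the 49 genes, the mean number of peaks per library and gene length had a Spearman rho of 0.70, and across the 20163 protein-coding genes 0.61. These are relations across genes in the same 4 libraries, and a longer window offers more places for a peak. Among genes of under 10 kb, 2 of 10 had a peak in any library, against 23.4% of all protein-coding genes of that length. Of those of 10 to 30 kb, 10 of 21 had one, against 41.6%. Of those of 30 to 100 kb, 14 of 15 had one, against 69.1%, with CDC25A the exception. All 3 genes of 100 kb or more (CCND3, CDK6 and MAD1L1) had one, against 92.8%. The mean number of peaks per library in these classes was 0.125, 0.214, 1.17 and 2.5, against 0.144, 0.302, 0.787 and 3.21 for all protein-coding genes. The median length was 19.8 kb for the 49 genes and 27.2 kb for all protein-coding genes.

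**Figure D2:**
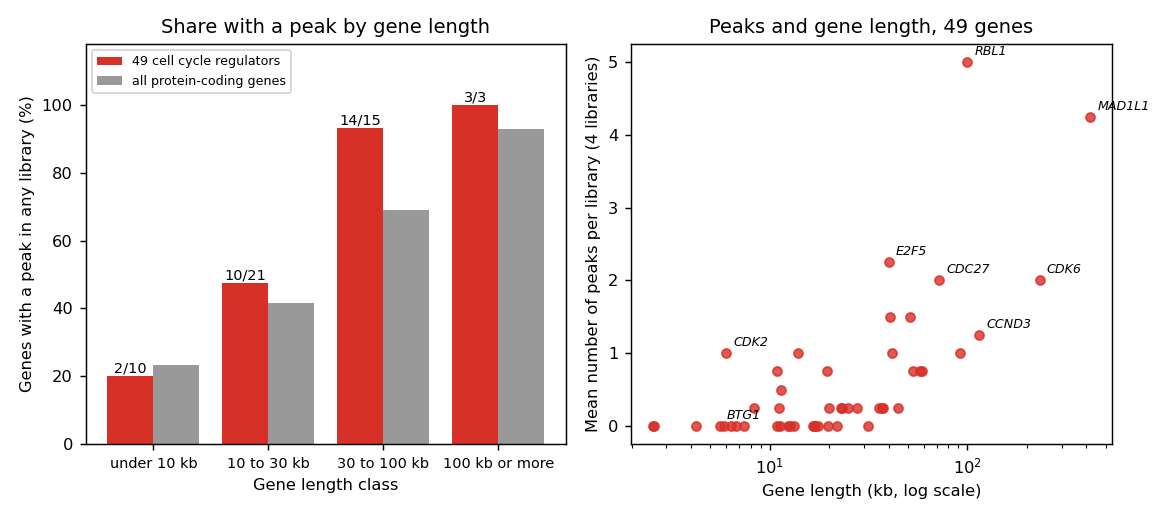
Left, share of genes with a peak in any library by gene length class, for the 49 cell cycle regulators (red, with counts) and all protein-coding genes (grey). Right, mean number of peaks per library (n = 4 libraries) against gene length in kb on a log axis, 1 point per gene; RBL1 lies above longer genes, at 5 peaks per library.

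Among the inhibitors, the region at CDKN2C was called in every library and that at CDKN1A in 3 of 4. CDKN1A encodes p21, the CIP/KIP inhibitor induced by DNA damage, and is 10.9 kb long. It had 1, 0, 1 and 1 peaks, all in 1 intronic region (chr6:36648926-36649382) 4.96 kb from its start. The fold enrichment at the summit (fragment pileup over local background, each with 1 added) was 7.55 in Control replicate 1, 5.03 and 6.64 in the si-N6AMT1 libraries, and no peak was called in Control replicate 2. CDKN1A had 1, 0, 0 and 1 with equal numbers of peaks, so that 1 library of either group held the call. By −log10 q its peak stood at the 45.2, 8.39 and 45.6 percentile of the 3 lists that hold it, low in si-N6AMT1 replicate 1 and near the middle in the others.

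CDKN2C had 1 peak in each library, in a region (chr1:51424225-51425420) 1196 bp wide. Its summit lay upstream of CDKN2C, at -1.28 kb from the start, within the body of FAF1 and 1000 bp or less from a start of FAF1. The peak therefore belongs to the CDKN2C window by position, and to the FAF1 promoter by annotation. Of the remaining inhibitors, CDKN1B (p27) had a peak in si-N6AMT1 replicate 2 alone and CDKN2A (p16 and p14ARF) in Control replicate 2 alone, the latter beyond the end of the gene. CDKN1C (p57), CDKN2B (p15) and CDKN2D (p19) had none in any library. CDKN1C and CDKN2D are 2.56 and 2.6 kb long.

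The other negative regulators named by the study had 0 or 1 peak in each library. Such counts are common at genes of their lengths. All protein-coding genes of under 10 kb, 10 to 30 kb and 30 to 100 kb had means of 0.144, 0.302 and 0.787 peaks per library. TIPRL and MDM2 are 23.1 and 37.4 kb long. BTG1, an antiproliferative factor, is 5.57 kb long and had 0 peaks in each of the 4 libraries. REST, a transcriptional repressor, is 58.9 kb long and had 1, 0, 1 and 1 peaks, but in 3 different regions, each called in 1 library. Their summits lay 64.1 kb (Control replicate 1, beyond the end of REST and inside NOA1), 55.45 kb (si-N6AMT1 replicate 1) and 45.25 kb (si-N6AMT1 replicate 2) from the start of REST. Hence no position in REST was called more than once, and with equal numbers of peaks REST had 1, 0, 0 and 1. TIPRL, a regulator of PP2A-type phosphatases, had 0, 0, 0 and 1 peaks, and MDM2, an E3 ubiquitin ligase, had 0, 0, 0 and 1. Neither had a peak in any library with equal numbers of peaks. MDM4, the partner of MDM2, had 2, 1, 1 and 0, and 1 of its 3 regions was called in 2 libraries, with a fold enrichment of 7.49 in Control replicate 1 and 9.51 in si-N6AMT1 replicate 1. MDM4 had 2, 0, 1 and 0 with equal numbers of peaks. Of the 5 genes CDKN1A, MDM2, BTG1, REST and TIPRL, then, only CDKN1A had a region called in more than 1 library, and no gene of the 5 had a region called in both controls. Among all protein-coding genes, 24.2% had a peak supported by both controls, so few such genes would be found among any 5.

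Primer pairs for quantitative PCR of the immunoprecipitated DNA at CDKN1A, MDM2, BTG1, REST and TIPRL were placed on the genome, to see where they lie against the peaks. The pairs for CDKN1A and REST are shown, 5′ to 3′ and in lower case throughout.
CDKN1A forward: ttcactgggccaaccacatc
CDKN1A reverse: ctcacacttgggtctcctct
REST forward: gagaggctgacttgcctgat
REST reverse: tggctgtcaacttccagctt
By exact match to GRCh37, each of the 5 pairs gave 1 product. The REST product (chr4:57796322-57796607, 286 bp) fell in REST, in an exon. The CDKN1A pair gave a product of 101 bp at chr4:36678602-36678702, whereas CDKN1A lies on chromosome 6. The products of the pairs listed for MDM2 (chr4:69704581-69704954), BTG1 (chr4:93064513-93064718) and TIPRL (chr4:169105102-169105456) were also on chromosome 4, outside those genes. Thus 1 of 5 products lay in the window of the gene it is listed under. None of the 5 overlapped a peak in any library. The peaks nearest to the REST product were 40.8, 78.7, 32.3 and 22.5 kb away, and those nearest to the CDKN1A product 19.3, 16.7, 17.3 and 5.57 kb. The qPCR values themselves were not used here, and primer matches with mismatches were not searched.

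RBL1 had the most peaks of the 49 genes. It is 99.6 kb long and had 5, 3, 7 and 5 peaks, a mean of 4.56 per 100 kb of window, against 0.994 for MAD1L1 and 0.828 for CDK6, both of which are longer. Some shorter genes came near or above that density, with 6.25 at CDK2, 4.5 at E2F5 and 4.19 at CDKN2C. At RBL1 the groups overlapped (4.0 against 6.0 peaks, exact permutation p = 0.667, n = 2), and with equal numbers of peaks RBL1 had 5, 3, 5 and 4. Its peaks fell into 10 regions, all in introns, of which 2 were called in all 4 libraries, 3 in 2 or 3 libraries and 5 in 1. The region at 28.85 kb was called in all but si-N6AMT1 replicate 1, with fold enrichments of 5.57 and 6.45 in Control and 6.79 in si-N6AMT1 replicate 2. The region at 44.08 kb was called in both si-N6AMT1 libraries alone, at 4.51 and 5.05, with summits 445 bp apart. A region at 52.86 kb was called in replicate 1 of each group, at 5.64 and 5.26. RBL2 (p130), the other pocket protein, had 1, 0, 1 and 1 peaks over 57.7 kb. Its si-N6AMT1 peaks shared a region at 44.5 kb, with fold enrichments of 6.63 and 6.33, and its Control peak lay elsewhere, at 22.15 kb.

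Of the 9 cyclin genes, CCND3 alone had peaks in every library, against 23.8% of protein-coding genes and 65.1% of those of 100 kb or more. CCND3 had 2, 1, 1 and 1 over 115 kb. Its region called in all 4 libraries held the highest fold enrichment of any peak at these genes in Control replicate 2, 12.3. CCNA1, which encodes the germline cyclin A1, had a region near an annotated start that was called in replicate 2 of each group, with fold enrichments of 7.61 and 7.84. CCND2, CCNB1 and CCNB2 had a peak in 1 library each. CCND1, CCNE1, CCNE2 and CCNA2 had none. The peak of CCNB1, which drives mitosis, lay in the flank of the gene.

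Of the 4 CDK genes, CDK2 and CDK6 had a peak in every library, against 23.8% of protein-coding genes. By length the share was 65.1% of protein-coding genes of 100 kb or more, the class of CDK6. It was 5.63% of those of under 10 kb, the class of CDK2. The CDK2 peak (chr12:56366688-56367189) lay just beyond the end of CDK2, 6.35 kb from its start, inside PMEL and within 1000 bp of a start of RAB5B. CDK2 is 6.01 kb long and was the only gene of under 10 kb among the 49 with a peak in all 4 libraries. CDK6, the partner of D cyclins, had 1, 2, 3 and 2 peaks over 232 kb (1.5 against 2.5, exact permutation p = 0.667, n = 2), and 1, 2, 2 and 2 with equal numbers of peaks. Although a CDK6 peak was present in each library, no region of CDK6 was called in all 4. The region at 119.06 kb (chr7:92346552-92347060) had fold enrichments of 8.95 in Control replicate 2 and 12.3 and 9.31 in si-N6AMT1, and was not called in Control replicate 1. The region at 20.34 kb was called in replicate 1 of each group, at 3.63 and 5.39. CDK4 had 1 peak, in si-N6AMT1 replicate 2, near a start of MARCHF9, and CDK1, the mitotic kinase, had none.

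Among the 8 E2F genes, E2F5 gave the largest difference between groups of all 49 genes. E2F5, a factor that acts mainly as a repressor with p130 and p107, lies on chromosome 8 and is 40.0 kb long. Control had 1 and 0 peaks there and si-N6AMT1 had 5 and 3, a difference of 3.5, with no overlap between groups (exact permutation p = 0.333, the smallest that 2 against 2 libraries allow). The region at 10.68 kb, near another annotated start of E2F5, was called in Control replicate 1 (fold enrichment 5.12) and in both si-N6AMT1 libraries (5.05 and 4.59). The summits in that region spread over 596 bp. The regions at 13.33 and 17.2 kb were called in both si-N6AMT1 libraries alone. Fold enrichments were 6.29 and 7.78 at the first, and 4.89 and 6.51 at the second, whose summits lay 323 bp apart. The regions at 15.21 and 34.08 kb were called in si-N6AMT1 replicate 1 alone. With equal numbers of peaks E2F5 had 1, 0, 1 and 2 peaks and the groups overlapped (difference 1.0, exact permutation p = 0.667, n = 2). That cut keeps the peaks of highest −log10 p in each list, so the si-N6AMT1 peaks no longer counted were the lower ones by its rule.

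E2F3, an activator of S phase genes, had 1, 2, 0 and 1 peaks over 91.8 kb, and its region at 60.99 kb was called in all but si-N6AMT1 replicate 1, at 6.80, 6.29 and 6.07. E2F2 and E2F7 had a peak in 1 library each, and E2F1, E2F4, E2F6 and E2F8 had none. Thus 4 of the 8 family members carried a peak in any library, and none in all 4, against 54.2% and 23.8% of protein-coding genes. The median length of the 8 was 23.3 kb, and for protein-coding genes of 10 to 30 kb these shares were 41.6% and 11.0%.

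Of the CDC25 phosphatases, which activate CDKs, CDC25B had 0, 1, 1 and 1 peaks, all in an intronic region 2.04 kb from its start with fold enrichments of 9.73, 7.09 and 6.44. CDC25C had 1, 1, 0 and 1, and its region at 24.69 kb was shared by replicate 2 of each group, at 5.08 and 5.40. The summits there, at 24.41 and 24.98 kb, lay 565 bp apart. CDC25A and WEE1, the kinase that opposes CDC25, had none. CHEK1, the checkpoint kinase upstream of CDC25, had 1, 2, 2 and 1 peaks in 2 intronic regions. The first, at 25.13 kb, had fold enrichments of 5.67, 4.70 and 7.87 in all but si-N6AMT1 replicate 2. The second, at 40.90 kb, had 8.04, 5.71 and 6.14 in all but Control replicate 1. Hence the CHEK1 regions were each missed by 1 library, and not by the same one. CDC25C had 1, 0, 0 and 0 and CHEK1 1, 1, 2 and 1 with equal numbers of peaks.

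Of the mitotic kinases, AURKA had a peak in Control replicate 2, and PLK1 and AURKB had none. The AURKA peak had the lowest fold enrichment of any at these genes, 3.36. By −log10 q a CDK6 peak in Control replicate 1 was lower, at 3.04 against 3.24. BUB1, a spindle checkpoint kinase 40.5 kb long, carried 1 peak in either Control library and 2 in either si-N6AMT1 library, without overlap (exact permutation p = 0.333, n = 2). Each of the regions behind that count was also called in 1 control. The one at 33.89 kb was called in Control replicate 1 and both si-N6AMT1 libraries, at 6.35, 6.63 and 4.75, and the one upstream of BUB1, at -3.63 kb, in Control replicate 2 and both si-N6AMT1 libraries, at 8.89, 7.34 and 6.40. With equal numbers of peaks BUB1 had 1, 1, 2 and 1. MAD1L1, which recruits MAD2 to kinetochores, is the longest of the 49 genes at 417 kb and had 5, 3, 4 and 5 peaks in 6 intronic regions, 3 of them called in all 4 libraries. Its counts with equal numbers of peaks were 5, 3, 3 and 5. The next most shared, at 307.23 kb, was missed by Control replicate 2 alone, at 6.84, 6.89 and 6.22.

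CDC27, a core subunit of the anaphase-promoting complex, had 4, 1, 3 and 0 peaks over 71.7 kb, a gap of 3 peaks between the replicates of either group and the widest such gap among the 49 genes. Only its region at 41.97 kb was called more than once, with fold enrichments of 7.27 and 8.48 in Control and 6.33 in si-N6AMT1 replicate 1. The groups overlapped (2.5 against 1.5, exact permutation p = 0.667, n = 2). CDC20, the activator of that complex, MAD2L1, and CDC6, which loads the replicative helicase, had none.

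**Figure D3:**
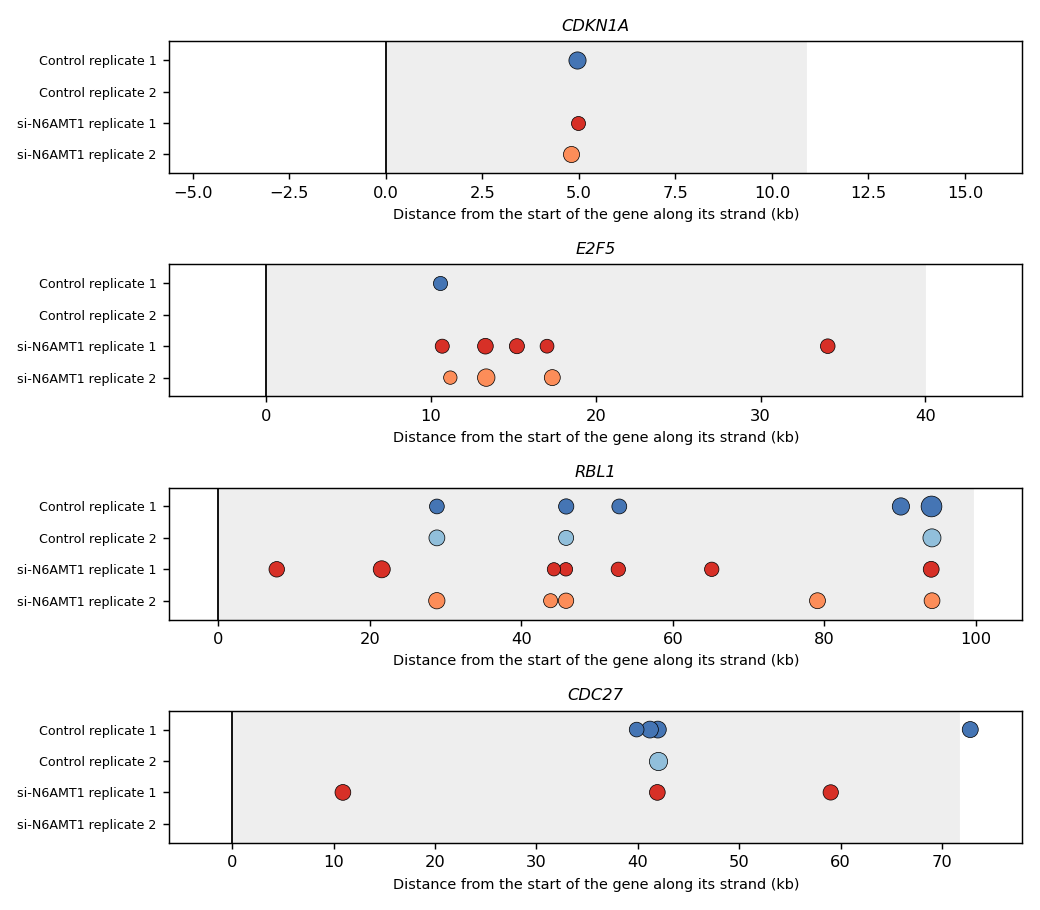
Summits of 6mA peaks along CDKN1A, E2F5, RBL1 and CDC27 in each library, as distance in kb from the start of the gene along its strand; grey marks the gene body and the area of a point grows with fold enrichment. CDKN1A shows 1 position in 3 libraries, E2F5 1 Control summit against 5 and 3 in si-N6AMT1, and RBL1 positions shared by all 4 libraries.

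By the test on peak numbers, 2 of the 49 genes (E2F5 and BUB1) were higher in both si-N6AMT1 libraries than in both controls, against 7.05% of protein-coding genes, and 0 were lower in both, against 1.64%. No gene could reach p = 0.05 in this design, and 0 of the 49 had an unadjusted exact permutation p under 0.05. A peak supported by both replicates of its group was found at 8 genes in Control (16.3%, against 24.2% of protein-coding genes) and at 12 in si-N6AMT1 (24.5%, against 28.3%). CDKN2C, RBL1, CCND3, CDK2, CHEK1 and MAD1L1 were in both sets. E2F3 and CDC27 were in the Control set alone, and CDKN1A, RBL2, CDK6, E2F5, CDC25B and BUB1 in the si-N6AMT1 set alone, which was not a test of their difference.

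The peaks at the 49 genes merged into 66 regions. Of these, 37 (56.1%) were called in 1 library, 9 in 2, 12 in 3 and 8 in all 4 (12.1%, against 16.6% of the 34875 regions at protein-coding genes). None of the 66 was called in both controls and in neither si-N6AMT1 library, against 2.63% of regions at protein-coding genes. The reverse, both si-N6AMT1 libraries and neither control, held for 4 (6.06%, against 5.66%), namely 2 in E2F5, 1 in RBL1 and 1 in RBL2. With equal numbers of peaks 2 regions were of this kind. By summit, 56 regions (84.8%) lay in introns, 6 (9.09%) within 1000 bp of a start site, 2 (3.03%) in exons and 2 (3.03%) between genes, against 89.1%, 3.24%, 1.21% and 6.42% of all regions at protein-coding genes. Of the 6 near start sites, 3 were near a start of the cell cycle gene itself (CCNA1, CCNB2 and E2F5) and 3 near that of a neighbour (FAF1, RAB5B and MARCHF9). The summit lay within the body of the cell cycle gene in 56 of 66 regions and in its flank in 10.

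Strength was compared next. The median fold enrichment was 6.82, 6.92, 6.33 and 6.46 at the 49 genes and 7.32, 6.88, 6.83 and 6.62 at all protein-coding genes. The highest values at the 49 genes were 11.0 (RBL1), 12.3 (CCND3), 12.3 (CDK6) and 9.89 (CCND3).

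The 8 regions called in all 4 libraries allowed the enrichment itself to be compared. The largest difference was at RBL1, 94.17 kb from its start, where Control had fold enrichments of 11.0 and 8.31 against 6.44 and 6.40 after knockdown, a log2 difference of -0.58 (exact permutation p = 0.333, n = 2). Both si-N6AMT1 values lay below both controls. The other RBL1 region, at 45.91 kb, had 5.94 and 5.79 against 4.63 and 6.01, and the groups overlapped (log2 difference -0.15, exact permutation p = 1.0, n = 2).

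At MAD1L1 the region at 49.3 kb had 6.84 and 7.19 (Control) against 4.92 and 5.70 (si-N6AMT1; log2 difference -0.40). The one at 130.83 kb had 8.79 and 8.46 against 8.26 and 6.64 (log2 difference -0.22), and the one at 272.95 kb 6.77 and 6.11 against 6.64 and 7.61 (log2 difference 0.15). Si-N6AMT1 was thus lower without overlap in the first pair of MAD1L1 regions, and the groups overlapped in the last. The CCND3 region had 10.0 and 12.3 against 8.70 and 9.89 (log2 difference -0.26), and the CDKN2C region 8.53 and 10.2 against 8.22 and 7.91 (log2 difference -0.21), both without overlap. The CDK2 region, the CA repeat printed above, had 10.5 and 9.01 against 10.5 and 9.18, a log2 difference of 0.01.

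**Figure D4:**
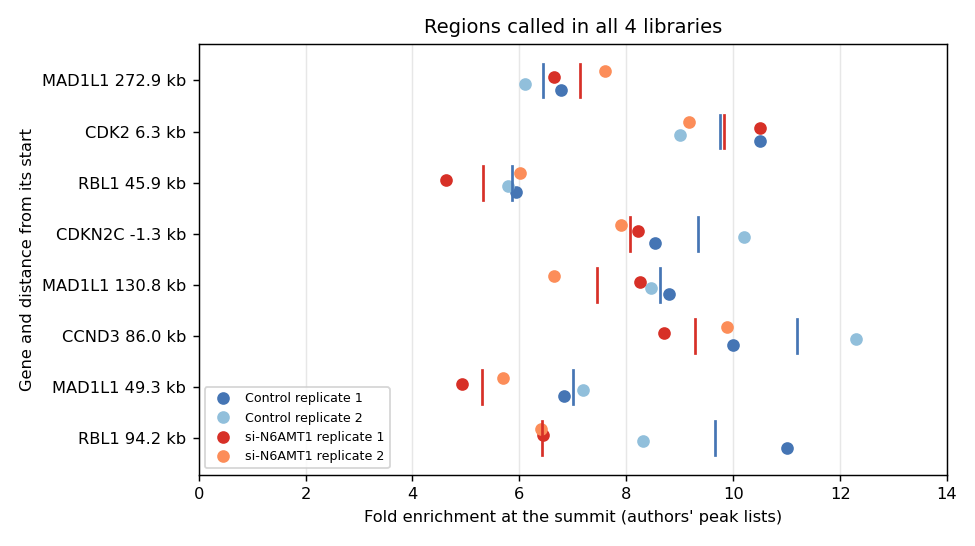
Fold enrichment at the summit, in each of the 4 libraries, for the 8 regions at cell cycle regulators called in all of them; points are libraries and short vertical lines the means of the groups (n = 2, blue Control, red si-N6AMT1). Both si-N6AMT1 points lie below both Control points in 5 of the 8 regions and overlap with them in 3.

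In all, fold enrichment was lower in both si-N6AMT1 libraries than in both controls at 5 of the 8 regions, against 23.6% of the 5794 regions at protein-coding genes, and higher in both at 0 of 8, against 17.4%. Its median log2 difference was -0.21 at the 8 regions and -0.04 at the 5794. The count depended on the measure. With fragment pileup divided by the genome-wide background of the library, 3 of the 8 (CDKN2C, CCND3 and MAD1L1 at 49.3 kb) were lower in both, against 26.8%, and the medians were -0.03 and -0.14. On that measure the log2 difference at RBL1, 94.17 kb, was 0.08 in place of -0.58, where the local background rose from 1.09 and 1.41 fragments (Control) to 3.35 and 3.22 (knockdown) and the pileup from 22 and 19 to 27 and 26. The differences at CDKN2C (-0.48) and CCND3 (-0.55) were larger on that measure. With −log10 q, 1 of the 8 was lower in both si-N6AMT1 libraries, against 14.6% of the 5794, and 1 higher in both, against 23.5%.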

How the data were processed

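6mA-IP-seq peak lists of 4 immunoprecipitated libraries were analysed, and files of the 2 input libraries were not used here. Per the submitters' processing notes and the study's methods, reads were filtered (Trimmomatic), mapped by the authors to hg19 (Bowtie2 2.3.5), freed of duplicates (SAMtools 1.9) and passed to MACS2 for peak calling at p = 1e-05. Which input went into which call is not given in the sources used here. The deposited fold enrichment is the ratio of pileup to local background at the summit, with 1 added to each. The −log10 q and −log10 p columns, as deposited, also describe the summit.

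Groups came from the sample titles. Genes were those of GENCODE v44 lifted to GRCh37, and a window was the gene body with 5000 bp on either side. A peak counted with 1 bp of overlap, so a peak in windows of neighbouring genes counted for each, and once in sums over the 49 genes. Peaks of the 4 libraries that overlapped by at least 1 bp were merged into regions, and the position given for a region is the median of its summits. Summits were assigned to promoters (within 1000 bp of a start site), exons, introns or intergenic sequence, in that order. Pileup, taken as a whole number, and background were solved from fold and −log10 p. The solution returned the −log10 p of the lists within 0.02 for 100% of peaks on the nuclear chromosomes. The study's differential test needs signal tracks, so calls, counts and folds were compared instead, with exact two-sided permutation tests over the 6 assignments of libraries (smallest p 0.333). These p-values measure the spread between 2 libraries a group. Work was done with samtools 1.23.1, matplotlib 3.10.9, pandas 2.3.3, scipy 1.17.1, pysam 0.24.0 and numpy 2.4.6 under Python 3.11.15, and the steps were tested on simulated data.

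Members and lists were chosen with earlier results of these data known. Values per library are given for CDKN1A, MDM2, BTG1, REST and TIPRL and for genes with a region called in 2 or more libraries, and sequences for 3 of the 8 regions called in all 4. E2F2, E2F7, CCNB1 and other genes with a peak in 1 library are named by count, and the library of some of these was named after the values were seen, as were the primer matches. Alternatives were no flank, 10000 bp flanks, summits alone, a −log10 q minimum of 5, lists of equal length (the 30451 peaks of highest −log10 p in each), 50% overlap, other measures of enrichment, leaving out 1 library at a time and a replicate block. Results on some genes, and the sequences of the other 5 regions, are not reported here.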

Additional observations from a re-analysis of the deposited data

How the results depend on the processing

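Over lists of equal length, the difference in peaks at the 49 genes was 0 in place of 7.5, and 2 regions in place of 4 were called only in si-N6AMT1. With 10000 bp flanks, or with 50% overlap, 1 region was called only in control, in place of 0. Leaving out 1 library in turn asked 1 library fewer of each region class, a looser definition than in the main counts. It gave a difference of -1 to 5 genes with a peak, 2 to 11 regions called only in control and 8 to 14 called only in si-N6AMT1. Those are 14 alternative values, and the other 55 for the 49 genes together stayed within the spread between replicates or within 1.5 times the main count. The ratio of peak density, 1.05 on average, ranged from 0.996 to 1.11. Classed by window length, 30.8% of 26, 88.9% of 18 and 100% of 5 genes had a peak in the classes from 10 kb up, and no gene was left under 10 kb. At single regions, log2 fold changed sign with pileup at CDK2 (-0.08), RBL1 (0.08 and 0.10) and MAD1L1 at 130.83 kb (0.09), and with −log10 q at RBL1, 45.91 kb (0.14), and MAD1L1, 130.83 kb (0.05). At CDK2 it was -0.10 without Control replicate 2 and -0.08 without si-N6AMT1 replicate 1, and at RBL1, 45.91 kb, 0.04 without si-N6AMT1 replicate 1. Over lists of equal length the difference in peak number was 0 at CDKN1A, REST, TIPRL, MDM2 and MAD1L1 (in place of 0.5 at each) and 0.5 at CHEK1 (in place of 0).

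Deviations of same-numbered libraries had a Pearson r of 0.00814 over 20163 genes, so the numbers were not taken as pairs. With a replicate block, the smallest exact sign-flip p is 0.5, and no difference changed in size. Peak numbers reached it at E2F5 (3.5 peaks) and BUB1, and also at MDM4, RBL1, E2F3 and CDC27, where the groups overlapped. Fold enrichment reached it at RBL1, 94.17 kb (-0.58), CDKN2C, CCND3, and MAD1L1 at 49.3 and 130.83 kb. With 2 libraries a group and summits of 17 to 19 fragments, a call missing in 1 library is not evidence that the mark is absent. Read totals and copy number were not used here.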

Other observations

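Another 64 cell cycle genes, in lists of replication licensing, anaphase-promoting complex and spindle checkpoint, DREAM complex, and SCF ligase and CDK partner genes, had 59, 71, 75 and 85 peaks in the 4 libraries, and 43 of the 64 had a peak in any library, against 54.2% of protein-coding genes of all lengths and 69.1% of those of 30 to 100 kb. All 9 DREAM genes had one (median length 56.8 kb), as did 14 of 17 SCF and CDK partner genes (44.9 kb), 11 of 17 licensing genes (25.3 kb) and 9 of 21 anaphase-promoting complex and checkpoint genes (32.0 kb). The number of peaks was higher in both si-N6AMT1 libraries than in both controls at 7 of the 64, against 7.05% of protein-coding genes, and lower in both at 2, against 1.64%, and no exact permutation p under 0.333 was possible.

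Among the 7, chosen here for naming after their values were seen, were MYBL2, a partner of the MuvB core of the DREAM complex, with 0 and 1 peaks against 3 and 2 (Control, then si-N6AMT1), and DBF4, the activating subunit of the CDC7 kinase, with 0 and 1 against 3 and 3. LIN54, the DNA-binding subunit of MuvB, had 0 and 0 against 2 and 1. The 2 that were lower were ANAPC7, a subunit of the anaphase-promoting complex, with 2 and 2 against 1 and 1, and FBXW7, the F-box protein that targets cyclin E, with 2 and 2 against 1 and 1. Depth was higher in both si-N6AMT1 libraries, and its part in these differences was not tested.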
